A study of Mus musculus with 8 samples.

Results

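The Hoxa and Hoxb cluster genes examined here were Hoxa3, Hoxa5, Hoxa7, Hoxa9, Hoxa10, Hoxb2, Hoxb3, Hoxb4, Hoxb5 and Hoxb6. These 10 genes, of 18193 named on the array, were taken with every probe set that carried the name of 1 of them and of no other gene. They had 18 such probe sets, and 12 of these held measured values, 7 for Hoxa and 5 for Hoxb genes. The other 6 were listed at 0 on all 8 arrays, and so were the only probe sets of Hoxb2 and of Hoxb6. This left 8 of the 10 genes with a level, and Hoxb2 and Hoxb6 are not described further. The arrays were hybridised with RNA of LSK cells from mouse bone marrow, the lineage-negative cells with Sca-1 and Kit on their surface that include the stem cells of the blood and multipotent progenitors. Of the 8 arrays, 4 held RNA of mice with a conditional knockout of Msi2 (Msi2 KO), the gene of an RNA-binding protein that is active in blood stem cells, and 4 held RNA of normal mice labelled WT (control), 1 mouse an array. Strain, age, sex and the driver of the deletion were given in none of the sources used here. Whether fewer cells of a type or less RNA per cell lies behind a lower signal cannot be told apart in such bulk RNA.

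Hox genes encode homeodomain transcription factors and lie in clusters, where the order of the genes follows the order in which they are switched on along the body axis. In blood, the Hoxa and Hoxb clusters are active in stem and early progenitor cells and are shut down as cells mature. Their proteins bind DNA together with the TALE homeodomain factors of the Pbx and Meis families, and MLL and Polycomb complexes keep the clusters on or off. Hoxa9 is needed for full stem cell function and drives leukaemia when overexpressed, added Hoxb4 expands stem cells, and Hoxb5 marks long-term stem cells in mice.

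Windows of RefSeq promoters (GRCm38.p6) covered 6 of the 10 genes in 7 windows of 300 bases, Hoxa3, Hoxa5, Hoxa7, Hoxa9, Hoxa10 with 2 starts, and Hoxb4. The 250 bases before the start are shown for 4 of them, written 5′ to 3′ with CpG dinucleotides in capitals, because they span the poorest and the richest of these windows and both clusters.
Hoxa3, chr6:52213068-52213317, minus strand: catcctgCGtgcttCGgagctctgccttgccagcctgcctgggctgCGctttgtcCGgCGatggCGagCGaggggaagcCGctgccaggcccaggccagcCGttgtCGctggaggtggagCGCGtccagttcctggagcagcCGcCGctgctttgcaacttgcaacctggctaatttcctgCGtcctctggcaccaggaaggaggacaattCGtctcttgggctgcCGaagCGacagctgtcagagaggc
Hoxa5, chr6:52204588-52204837, minus strand: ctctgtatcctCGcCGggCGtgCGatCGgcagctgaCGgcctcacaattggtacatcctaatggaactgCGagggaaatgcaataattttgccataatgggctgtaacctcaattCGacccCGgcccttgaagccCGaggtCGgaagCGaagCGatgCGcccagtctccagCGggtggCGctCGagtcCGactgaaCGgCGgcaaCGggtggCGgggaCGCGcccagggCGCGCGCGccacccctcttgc
Hoxa9, chr6:52227371-52227620, minus strand: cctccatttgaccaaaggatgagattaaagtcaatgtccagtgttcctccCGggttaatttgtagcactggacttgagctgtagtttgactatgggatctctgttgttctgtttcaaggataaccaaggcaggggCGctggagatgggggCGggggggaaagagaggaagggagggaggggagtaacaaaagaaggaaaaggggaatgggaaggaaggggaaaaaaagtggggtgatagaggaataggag
Hoxb4, chr11:96318017-96318266, plus strand: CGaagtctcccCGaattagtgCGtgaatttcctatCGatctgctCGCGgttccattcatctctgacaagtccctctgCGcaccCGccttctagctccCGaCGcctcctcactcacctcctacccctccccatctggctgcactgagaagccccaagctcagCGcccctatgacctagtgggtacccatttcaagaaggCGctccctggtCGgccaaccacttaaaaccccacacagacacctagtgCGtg
Over the 300 bases, the CpG count was 29 for Hoxa5, 20 for Hoxa3, 14 for Hoxb4 and 4 for Hoxa9, against a median of 7 over all 32851 promoters. The GC content was 61.7% for Hoxa5 and 49.7% for Hoxa9, against a median of 52.7%. The motif TGATNNAT, bound by Hox and Pbx proteins as a pair, stood on either strand in 0 of the 7 windows and in 8.85% of all promoters. The Meis motif TGACAG stood in 1 of the 7, that of Hoxa3, and in 19.2% of all. Motif matches describe the letters of these windows only. The Hoxa3 window lies between those of Hoxa5 and Hoxa7, although Hoxa3 comes before Hoxa5 in the order of the cluster. It thus belongs to a start beyond Hoxa5, and whether these cells use that start was not tested.

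Msi2 itself was lower on all 4 Msi2 KO arrays. Over its 4 probe sets with a control mean above 7, Msi2 KO 1 to 4 kept 73.2%, 63.7%, 15.2% and 40.4% of the mean control signal, against 90.7% to 111.1% in single controls. The third knockout array, Msi2 KO 3, differed most from the rest. Its score on the leading principal component (28.6% of variance) was 69.4, where the other 7 arrays ran from -39.4 to 16.9. Its actin 3′ to 5′ difference was 0.287, where they ran from -0.118 to 0.133, but that of Gapdh was 1.696, inside their range of 1.35 to 1.845, whose lowest value was that of Msi2 KO 4. Xist, which is transcribed from the inactive X chromosome, read 4.79 to 5.55 on Msi2 KO 1, Msi2 KO 2 and control 1, and 11.92 to 12.51 on the other 5 arrays. Eif2s3y, a Y-linked gene, read 8.05 to 8.14 on those 3 arrays and 3.36 to 3.62 on the other 5, so the Xist level divides the arrays as the sex of the mice would. Kit, a gene of the sort, was measured, and Ly6a, which encodes Sca-1, had no probe set of its own name. The lineage genes Cd3e, Cd3g, Cd79a and Itgam were listed at 0, by a step that is not stated, so a 0 does not show absence. Other lineage genes were measured. Cd79b read 7.18 to 7.55 in Msi2 KO and 7.41 to 8.19 in control, and Lyz2 9.21 to 10.27 and 10.53 to 10.77.

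Msi2 KO was compared with control for each Hox probe set, and for none was the difference beyond what the spread between arrays allows. In limma's fit across all 24404 measured probe sets, with Benjamini-Hochberg adjustment, 0 of the 12 Hox probe sets passed an adjusted p of 0.05 (adjusted p from 0.527 to 0.993), where 0 of all probe sets passed (0.0%). At an unadjusted p under 0.05 it was 0 of the 12, against 9.72% of all probe sets. The difference was below 0 for 10 of the 12, all 5 of Hoxb and 5 of the 7 of Hoxa, against 49.9% of all probe sets. Its median was -0.21 for Hoxa and -0.14 for Hoxb, against 0.00 for all probe sets.

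A single array carried most of this. Msi2 KO 3 was the lowest of the 8 arrays on 12 of the 12 Hox probe sets, while it was the lowest on 18.7% of all probe sets. It was only just the lowest for Hoxb4 1451761_at (5.676, with Msi2 KO 2 at 5.684) and Hoxb3 1456229_at (5.923, with Msi2 KO 4 at 5.928). Its mean deviation from the control mean was -1.01 for the Hoxa and -0.80 for the Hoxb probe sets, and -0.00 over all probe sets. On Msi2 KO 1, Msi2 KO 2 and Msi2 KO 4 the Hoxa mean deviation was 0.33, 0.16 and -0.10, against -0.24 to 0.13 in the controls. The Hoxb mean deviation on these 3 arrays was -0.07, -0.34 and -0.15, against -0.18 to 0.19 in the controls. Without Msi2 KO 3, 6 of the 12 differences were below 0 and 6 above, against 50.5% of all probe sets below. Those below 0 were 2 of the 7 of Hoxa and 4 of the 5 of Hoxb. The medians were 0.09 for Hoxa and -0.03 for Hoxb. Msi2 KO 3 was also the array with the least Msi2, at 15.2% of control, so leaving it out leaves out the strongest loss of Msi2. The SD was larger in Msi2 KO than in control for 8 of the 12, against 58.1% of all probe sets.

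**Figure D1:**
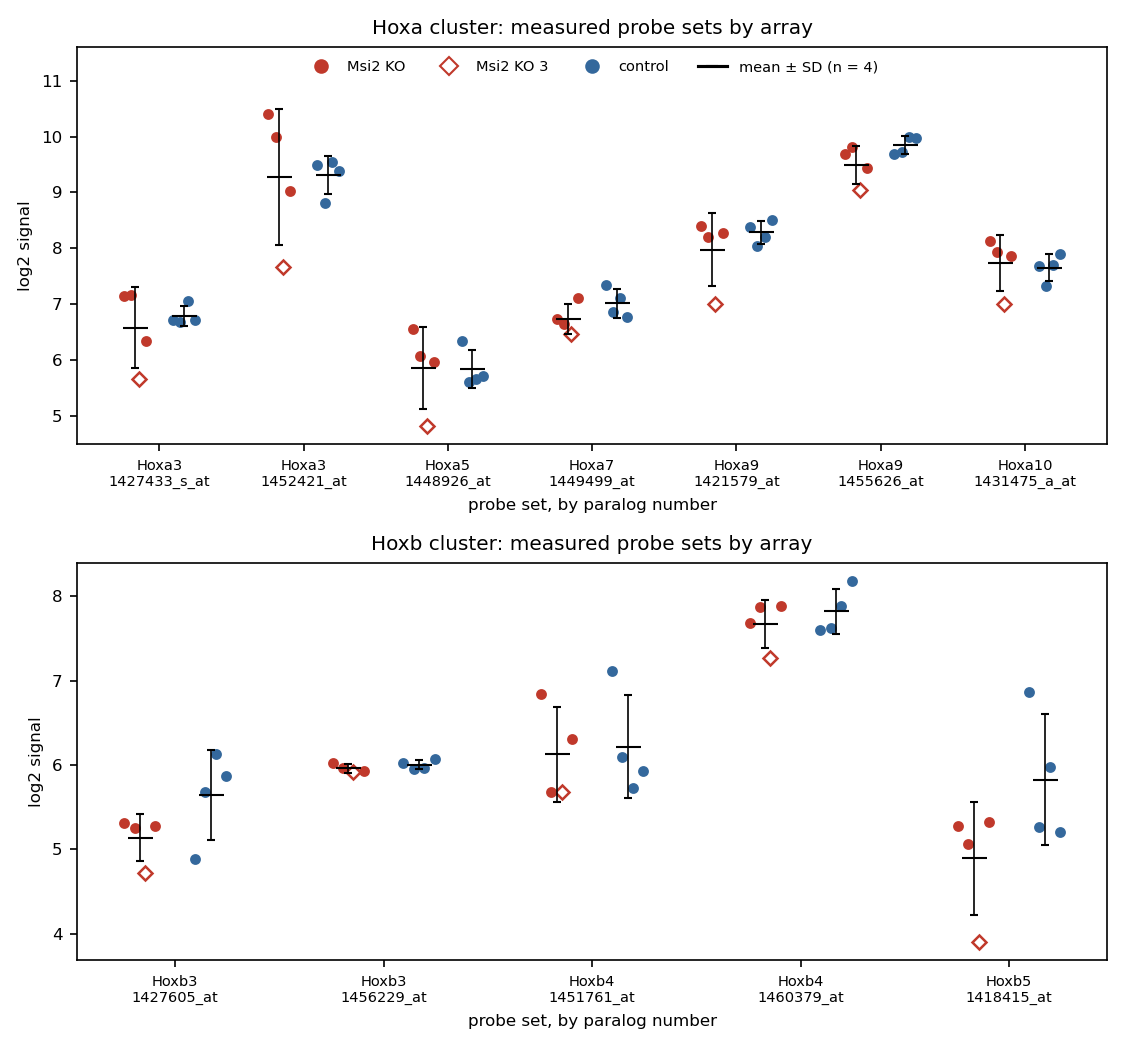
Log2 signal of each measured Hox probe set on every array, Hoxa above and Hoxb below, with Msi2 KO in red left of control in blue and Msi2 KO 3 as an open diamond. Bars give the mean and SD (n = 4 each). Msi2 KO 3 is the lowest point of all 12 probe sets, though only just for Hoxb3 1456229_at and Hoxb4 1451761_at. The other Msi2 KO arrays mostly lie among or near the controls. For Hoxa3 1452421_at, Msi2 KO 1 (10.40) and Msi2 KO 2 (10.004) lie above the highest control (9.54).

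Hoxa3, a gene of pharyngeal and neck development, had the widest spread in the knockout. Its probe set 1452421_at read 10.40, 10.004, 7.67 and 9.02 on Msi2 KO 1 to 4, against 9.50, 8.82, 9.54 and 9.38 on control 1 to 4. Msi2 KO 1 and Msi2 KO 2 thus lay above every control and Msi2 KO 3 below every control, so that the groups overlapped around nearly equal means. The means were 9.27 ± 1.22 in Msi2 KO and 9.31 ± 0.33 in control (SD, n = 4 each), a difference of -0.04 with a 95% interval of -1.21 to 1.14 (limma, adjusted p 0.991). The second Hoxa3 probe set, 1427433_s_at, read 7.15, 7.17, 5.67 and 6.34 on Msi2 KO 1 to 4, against 6.73, 6.68, 7.06 and 6.72 on control 1 to 4. It repeated the split, with 2 Msi2 KO arrays above and 2 below all controls, and differed by -0.21 (-0.93 to 0.50). Without Msi2 KO 3 the differences were 0.50 and 0.09, neither past the threshold (limma, adjusted p 0.688 and 0.938).

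The split ran along the Xist level of the arrays. On the arrays with high Xist, where Msi2 KO 3 and Msi2 KO 4 stand against 3 controls, Hoxa3 1452421_at differed by -0.90, and on those with low Xist, where Msi2 KO 1 and Msi2 KO 2 stand against 1 control, by 0.70. For 1427433_s_at the differences were -0.81 and 0.43. The difference between these differences did not pass limma's test of an interaction (adjusted p 0.588 and 0.524). Msi2 KO 3 and Msi2 KO 4, the arrays with high Xist, were also those with the least Msi2. The parts of sex, as read from Xist and Eif2s3y, of Msi2 level and of single arrays in the split cannot be told apart. Over the 12 Hox probe sets, 11 were lower in Msi2 KO on the arrays with high Xist (median -0.47), and 6 on those with low Xist (median 0.02). Of all 24404 probe sets, 11950 and 12691 were lower. The first count includes Msi2 KO 3, the lowest array on all 12, and the second rests on control 1 alone as control.

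Hoxa5, which in human progenitors favours myeloid over erythroid fate, read 6.56, 6.07, 4.83 and 5.97 on Msi2 KO 1 to 4, against 6.35, 5.62, 5.67 and 5.72 on control 1 to 4 (1448926_at). Apart from Msi2 KO 3 all Msi2 KO arrays lay above the control mean, and 1 lay above every control. The difference was 0.02 (-0.75 to 0.79), and 0.36 without Msi2 KO 3 (limma, adjusted p 0.993 and 0.683). Hoxa10, whose overexpression alters myeloid and megakaryocytic development, read 8.14, 7.94, 6.998 and 7.87 on Msi2 KO 1 to 4, against 7.69, 7.33, 7.71 and 7.90 on control 1 to 4 (1431475_a_at). The other 3 Msi2 KO arrays lay above 3 of the controls, and 2 of them above all 4. The difference was 0.08 (-0.49 to 0.64), and 0.33 without Msi2 KO 3 (adjusted p 0.623 in limma).

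Hoxa9 was read by 2 probe sets, which differed in how far the result rested on 1 array. Probe set 1455626_at read 9.68, 9.82, 9.04 and 9.44 on Msi2 KO 1 to 4, against 9.68, 9.73, 10.004 and 9.98 on control 1 to 4. All 4 Msi2 KO arrays lay below the control mean and 3 below every control, yet the groups overlapped. Of these 3, Msi2 KO 1 at 9.675 all but met the lowest control, control 1 at 9.677. The means were 9.49 ± 0.34 in Msi2 KO and 9.85 ± 0.17 in control (SD, n = 4 each), a 0.783-fold level. The difference was -0.35 (-0.78 to 0.07; limma, adjusted p 0.580; exact permutation, two-sided, p 0.114), and -0.20 when Msi2 KO 3 was left out. Probe set 1421579_at read 8.41, 8.21, 7.01 and 8.28 on Msi2 KO 1 to 4, against 8.39, 8.05, 8.20 and 8.51 on control 1 to 4. Here 3 Msi2 KO arrays lay inside the control range, and the difference of -0.31 (-0.98 to 0.35) was 0.01 without Msi2 KO 3.

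Hoxa7, which is expressed together with Hoxa9 in leukaemias with MLL fusions, read 6.74, 6.65, 6.47 and 7.11 on Msi2 KO 1 to 4, against 7.34, 6.86, 7.11 and 6.77 on control 1 to 4 (1449499_at). 3 Msi2 KO arrays lay below every control and 1 among them. The difference was -0.28 (-0.70 to 0.14), and it changed least among the Hoxa genes without Msi2 KO 3, to -0.19 (limma, adjusted p 0.665 and 0.810). Here Msi2 KO 2 and Msi2 KO 1 lay close to Msi2 KO 3.

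In the Hoxb cluster, Hoxb5 had the widest difference of all 12 Hox probe sets. It read 5.28, 5.07, 3.90 and 5.33 on Msi2 KO 1 to 4, against 6.86, 5.26, 5.98 and 5.21 on control 1 to 4 (1418415_at). All Msi2 KO arrays lay below the control mean, but 2 of them lay above the lowest control, and control 1 stood above the other controls. The means were 4.90 ± 0.67 in Msi2 KO and 5.83 ± 0.77 in control (SD, n = 4 each), a difference of -0.93 (-1.89 to 0.03; limma, adjusted p 0.527; exact permutation, two-sided, p 0.171). Leaving out Msi2 KO 3, it was -0.60, and leaving out control 1, it was -0.59. Within the arrays of high and of low Xist the difference was -0.87 and -1.68.

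Hoxb4 showed no common shift. The probe set 1460379_at read 7.68, 7.87, 7.27 and 7.88 on Msi2 KO 1 to 4, against 7.60, 7.62, 7.88 and 8.18 on control 1 to 4. Msi2 KO 3 alone lay below the controls, and the difference of -0.14 (-0.58 to 0.29) was -0.01 without it. The second, 1451761_at, read 6.84, 5.68, 5.68 and 6.31 on Msi2 KO 1 to 4, against 7.11, 6.10, 5.73 and 5.93 on control 1 to 4, a difference of -0.09 (-0.88 to 0.71). The 2 probe sets put the controls in different orders, with control 1 the lowest on the first and the highest on the second.

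Hoxb3, a stem cell gene that overlaps Hoxb4 in function in mice, was also read differently by its 2 probe sets. 1427605_at read 5.31, 5.25, 4.72 and 5.28 on Msi2 KO 1 to 4, against 4.89, 5.68, 6.13 and 5.87 on control 1 to 4. All 4 Msi2 KO arrays lay below 3 of the controls, while control 1 lay within the range of the Msi2 KO arrays. The difference was -0.50 (-1.10 to 0.10; limma, adjusted p 0.580). 1456229_at was flat, at 5.92 to 6.03 in Msi2 KO and 5.95 to 6.07 in control, with a difference of -0.04 (-0.30 to 0.21). The lower readings of the one probe set had no counterpart on the other.

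**Figure D2:**
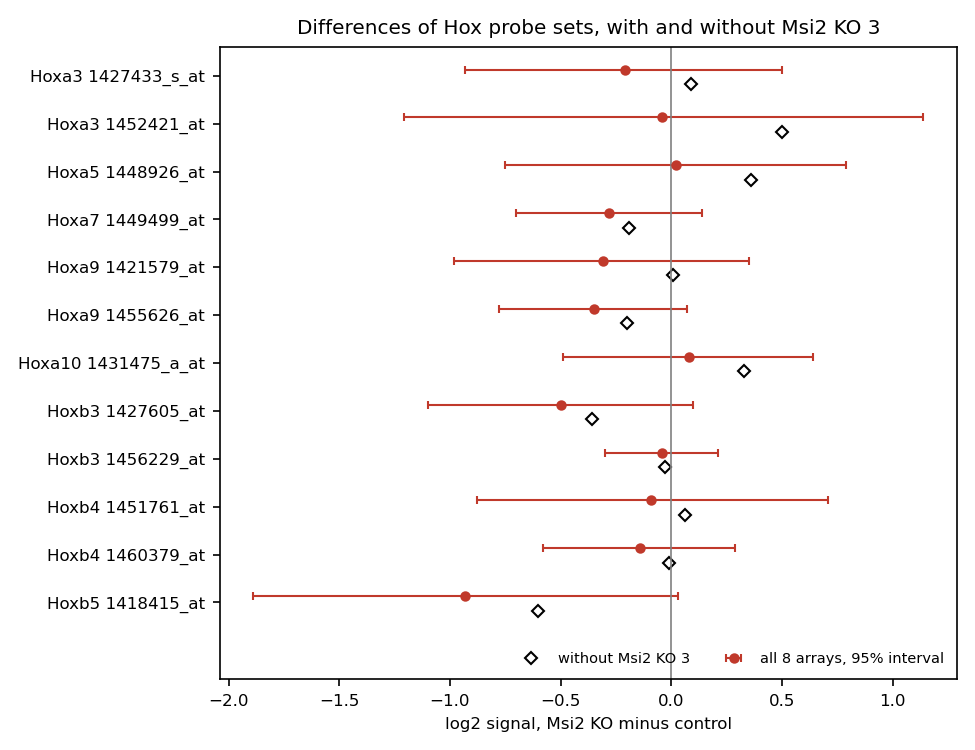
Difference of log2 signal, Msi2 KO minus control, for each Hox probe set, Hoxa and then Hoxb by gene number, with limma's 95% interval over all 8 arrays (red) and the difference without Msi2 KO 3 (open diamonds). Every interval crosses 0, and the widest difference is -0.93 for Hoxb5. The diamonds lie to the right of the red points for all 12, as they must when the array left out is the lowest.

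The LSK gate and stem cell markers were lowest in their mean on Msi2 KO 3. In the fit on 1 probe set a gene, their median difference was -0.63, and -0.03 without that array. Of the 10 genes listed for the LSK gate and stem cells, 7 were measured, and their mean deviation from control was -1.49 on Msi2 KO 3, against -0.13 to -0.07 on the other Msi2 KO arrays and -0.30 to 0.18 in the controls. Their summed linear signal was 1737 to 4164 in Msi2 KO and 3838 to 4332 in control, and Fgd5 was listed at 0. Procr, the endothelial protein C receptor and a stem cell marker, read 9.14, 9.29, 6.48 and 8.25 on Msi2 KO 1 to 4, against 8.98 to 9.23 in the controls. Kit itself read 8.82 to 9.19 in Msi2 KO and 8.39 to 9.16 in control. Tek, a receptor gene of stem and endothelial cells, read 5.79 to 6.18 in Msi2 KO and 5.95 to 7.38 in control. Msi2 KO 3 was thus low in the mean of these markers as well as in the Hox genes, and within the controls in Kit.

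The erythroid markers were highest on the same array. Of 14 listed, 10 were measured, with a summed signal of 8377 to 21996 in Msi2 KO and 4977 to 10120 in control, the highest on Msi2 KO 3, and Hba-a1 and Alas2 were listed at 0. Of 8 mast cell and basophil markers, 6 were measured, with a summed signal of 397 to 988 in Msi2 KO and 199 to 575 in control, and Gzmb was listed at 0. Of 11 lymphoid markers only Dntt, Cd79b and Vpreb1 were measured, with a summed signal of 397 to 1429 in Msi2 KO and 1927 to 3025 in control, the lowest on Msi2 KO 3. The 5 measured megakaryocyte markers summed to 1653 to 3784 in Msi2 KO and 584 to 1929 in control, with Gp9 at 0. The lowest of the Msi2 KO sums was that of Msi2 KO 3. Pf4 had the highest level of the 5 and weighed most in the sum. It read 10.36 to 11.64 in Msi2 KO, 7.95 on control 1 and 9.97 to 10.56 on the other controls. Of the 5 genes, 3 were higher and 2, Itga2b and Vwf, lower (-0.14 and -0.34). The 8 granulocyte and monocyte markers summed to 14191 to 20157 in Msi2 KO and 11008 to 19582 in control, with Itgam at 0. The 4 endothelial and stromal markers summed to 238 to 369 in Msi2 KO and 407 to 502 in control, with Kdr, Col1a1, Cxcl12, Lepr and Pdgfra at 0. In the fit on 1 probe set a gene, the median difference of erythroid, mast cell and lymphoid markers was 1.37, 1.06 and -1.19. Without Msi2 KO 3 it was 0.93, 0.74 and -0.86. The mast cell mean deviation was 1.42 on Msi2 KO 3 and 1.38 on Msi2 KO 4. Higher and lower genes were 10 and 0 (erythroid), 4 and 2 (mast cell) and 0 and 3 (lymphoid). They were 6 and 2 (granulocyte and monocyte) and 1 and 3 (endothelial and stromal). Of all genes, 49.6% were lower. The part of these cell types in the Hox values was not tested.

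**Figure D3:**
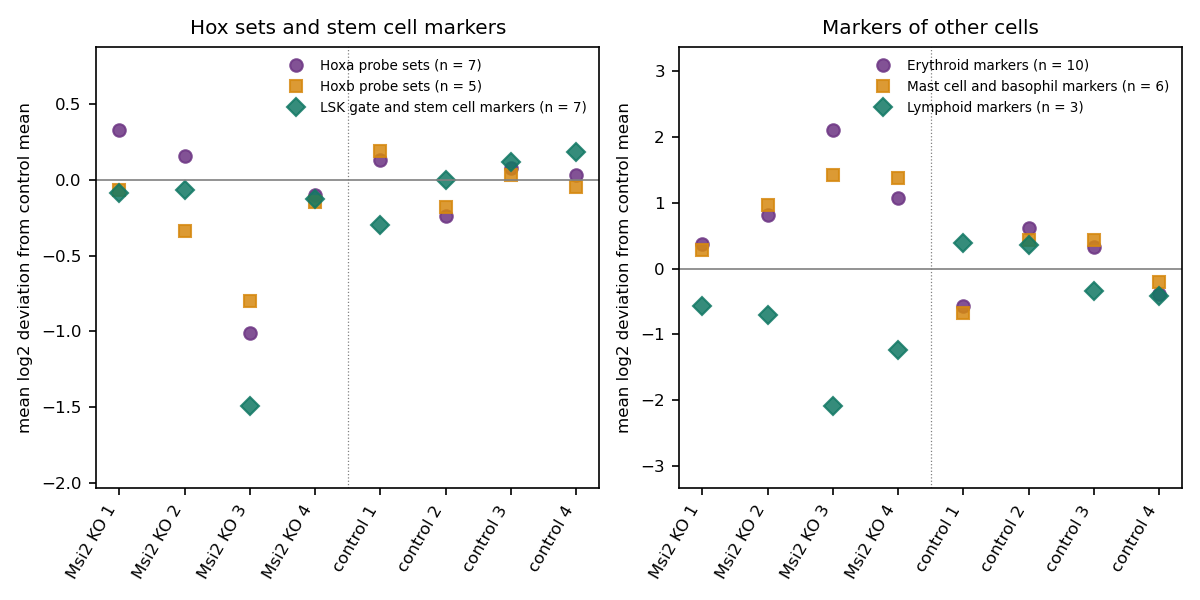
Mean log2 deviation from the control mean on each array, Msi2 KO left of the dotted line and control right of it. On the left are the Hoxa and Hoxb probe sets and the LSK gate and stem cell markers, which are lowest on Msi2 KO 3 (-1.01, -0.80 and -1.49), and on the right the erythroid, mast cell and lymphoid markers, at 2.11, 1.42 and -2.08 on that array.

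Other Hox genes gave little to compare. Of the 29 other Hox genes listed, 20 were at 0 on all arrays, among them Hoxa2, Hoxa11, Hoxa13, Hoxb1, Hoxb7 and Hoxb9, and 6 had no probe set of their own name. The 3 measured, Hoxa4, Hoxc6 and Hoxd3, differed by -0.01 to 0.03. Hoxa4, which lies between Hoxa3 and Hoxa5, read 3.76 to 4.22 in Msi2 KO and 3.70 to 4.26 in control (1427354_at), with full overlap.

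Within the Hoxb cluster, the groups separated for an antisense transcript. Hoxb5os, a long noncoding RNA gene whose span overlaps Hoxb5 and Hoxb6 in RefSeq, read 4.31, 5.85, 4.69 and 5.67 on Msi2 KO 1 to 4, against 6.02, 6.97, 6.83 and 6.83 on control 1 to 4 (1447886_at, chosen after its values were seen). All Msi2 KO arrays lay below all controls, as for 2.96% of all probe sets. The means were 5.13 ± 0.75 in Msi2 KO and 6.66 ± 0.43 in control (SD, n = 4 each), a 0.346-fold level. The difference of -1.53 (-2.36 to -0.71) missed the threshold (limma, adjusted p 0.330), and its exact permutation p (two-sided) was 0.0286, the smallest that 4 arrays against 4 can give. It did not rest on Msi2 KO 3, which was not the lowest array, and was -1.39 without it (limma, adjusted p 0.437). Within the arrays of high and of low Xist it was -1.69 and -0.94.

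Of 19 listed transcripts and genes at or beside the clusters, Hoxb5os among them, 6 were measured, with 5 lower, 1 higher and 0 passed, and a median of -0.42 in the fit on genes. Beside the Hoxb cluster, Snx11, which encodes a sorting nexin, differed by -0.07 (1424031_at), and Cbx1, which encodes a heterochromatin protein, by -0.24 without overlap (1433718_a_at; limma, adjusted p 0.536). The other 4 probe sets of Cbx1 differed by -0.37 to -0.17 with overlap. Protein-coding genes beside the Hoxa cluster include Skap2, the gene of an adaptor of integrin signalling in myeloid cells, and Snx10, that of a sorting nexin of endosomes. Skap2 read 10.93, 10.58, 10.51 and 10.82 on Msi2 KO 1 to 4, against 11.40, 11.37, 11.44 and 11.37 on control 1 to 4 (1418895_at). The groups did not overlap, and the controls were nearly level. Msi2 KO lay below control without overlap for 2.96% of all probe sets, the share to set beside Cbx1, Skap2 and Snx10. The difference was -0.68 (-0.99 to -0.38), a 0.622-fold level (adjusted p 0.298 in limma). The two-sided exact permutation p of 0.0286 is the smallest possible here and restates the lack of overlap. A second Skap2 probe set, 1457097_at, differed by -0.61 without overlap, and probe set 1460623_at by -0.15 with overlap. Snx10 read 6.94, 7.10, 6.996 and 7.14 on Msi2 KO 1 to 4, against 7.58, 7.64, 7.76 and 7.58 on control 1 to 4 (1431055_a_at). Its groups were apart by more than either's own range, with a difference of -0.60 (-0.87 to -0.33; limma, adjusted p 0.298) and -0.58 without Msi2 KO 3. Its other probe set, 1459764_x_at, differed by -0.39 with overlap. On the arrays of high and of low Xist the differences were -0.73 and -0.64 for Skap2 1418895_at and -0.59 and -0.56 for Snx10 1431055_a_at. Hibadh, which encodes an enzyme of valine breakdown and also lies beside the cluster, read 9.27 to 9.68 in Msi2 KO and 9.12 to 9.63 in control (1435967_s_at), and 7.06 to 7.74 and 7.02 to 7.18 on its other probe set.

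**Figure D4:**
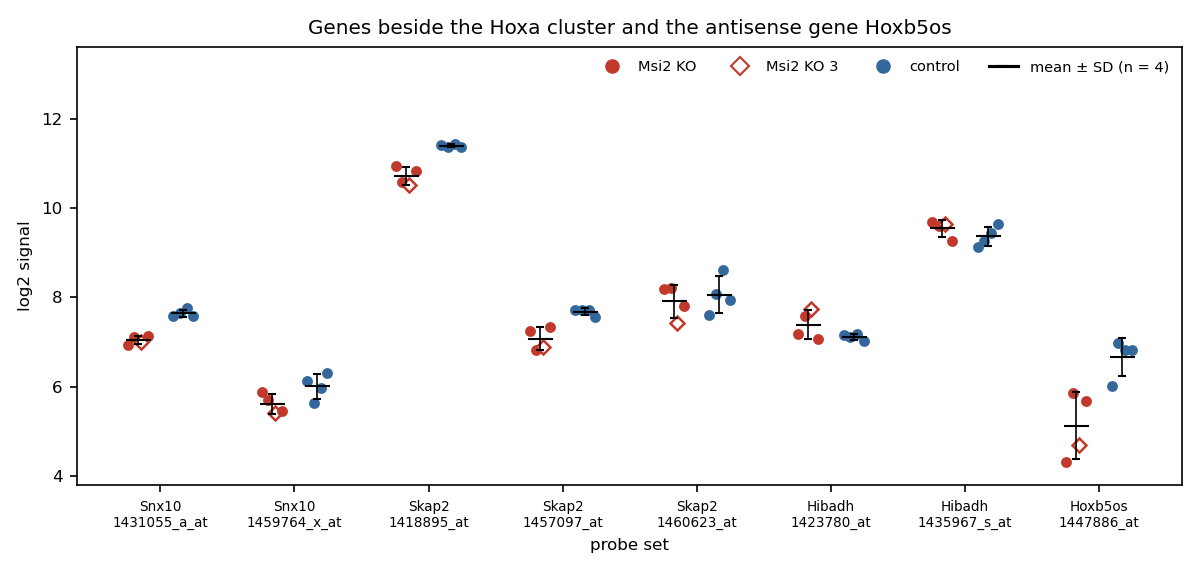
Log2 signal of the probe sets of Snx10, Skap2 and Hibadh, which flank the Hoxa cluster, and of Hoxb5os, by array, with Msi2 KO in red left of control in blue, Msi2 KO 3 as an open diamond, and mean and SD (n = 4 each). The groups are apart for Snx10 1431055_a_at, Skap2 1418895_at and 1457097_at and Hoxb5os, and overlap for the others.

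The genes that work with or on the Hox clusters were read from the fit on 1 probe set a gene, 10720 genes, of which 0 passed (0.0%) and 11.4% had an unadjusted p under 0.05. Of the 11 TALE cofactors, 6 were measured and 0 passed, with 4 lower, 2 higher and a median of -0.16, against 49.6% lower and a median of 0.00 for all genes. Without Msi2 KO 3 it was 3 lower and 3 higher, with a median of -0.05. Meis1, the partner of Hoxa9, read 9.32, 9.21, 7.93 and 8.95 on Msi2 KO 1 to 4, against 9.22, 8.72, 8.98 and 9.39 on control 1 to 4. On this probe set, 1459423_at, it was lowest on Msi2 KO 3 like the Hoxa genes. The difference of -0.22 was 0.08 without that array, and that of 1450992_a_at went from -0.16 to 0.14. Probe set 1443260_at was lowest on Msi2 KO 4 (6.47), and its difference of -0.69 was -0.55 without Msi2 KO 3. With its probe sets averaged, Meis1 differed by -0.36. Pbx2 differed by -0.21, Pbx3 by -0.19, and Pknox1 and Tgif2 by 0.13 and 0.08, all with overlapping groups. With probe sets averaged within each gene, Pbx2 and Pbx3 each differed by -0.04.

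Of the 22 activators of Hox genes, 17 were measured and 0 passed, with 9 lower, 8 higher and a median of -0.01. Dot1l, the methyltransferase of histone H3 that MLL fusions depend on, read 7.69, 7.72, 7.87 and 7.72 on Msi2 KO 1 to 4, against 7.45, 7.15, 7.20 and 7.55 on control 1 to 4. All its Msi2 KO arrays lay above all controls, as for 3.63% of genes, by 0.41 ± 0.14 (SE; limma, adjusted p 0.348). Mllt3, a partner of Dot1l, differed by 0.29, and Kmt2a, which encodes MLL itself, by 0.32 ± 0.19 (SE; limma, adjusted p 0.552). Psip1, which tethers MLL to chromatin, differed by -0.29, and by -0.13 without Msi2 KO 2, and the acetyltransferase gene Kat6a differed by -0.19. With probe sets averaged within each gene, Kmt2a differed by 0.07, Psip1 by 0.06 and Kat6a by -0.02. Kmt2a differed by 0.20 without control 2.

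Of the 18 Polycomb genes, 16 were measured and 0 passed, with 6 lower, 10 higher and a median of 0.03. Bmi1, the repressor that stem cells need for self-renewal, read 8.71, 8.47, 8.75 and 8.501 on Msi2 KO 1 to 4, against 8.29, 8.06, 8.35 and 8.36 on control 1 to 4. All 4 Msi2 KO arrays lay above all controls, by 0.34 ± 0.13 (SE; limma, adjusted p 0.402). With the mean of all its probe sets the difference was 0.10. Phc2, a gene of another subunit of that complex, differed by 0.55 with 3 Msi2 KO arrays above the controls. Of the second Polycomb complex, Ezh2, its methyltransferase, differed by 0.05, Eed by -0.22 and Mtf2 by -0.24, with -0.14 for Eed without Msi2 KO 4 and -0.15 for Mtf2 without Msi2 KO 2.

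Of the 18 genes listed as Hoxa9 and Meis1 targets, 17 were measured and 0 passed, with 12 lower, 5 higher and a median of -0.18. Without Msi2 KO 3 the median was -0.09, with 11 lower and 6 higher. Sox4, a transcription factor of progenitors, read 9.86, 9.79, 9.09 and 9.91 on Msi2 KO 1 to 4, against 10.04, 10.06, 10.35 and 10.31 on control 1 to 4. All its Msi2 KO arrays lay below all controls, as for 3.48% of genes, by -0.53 ± 0.20 (SE; limma, adjusted p 0.392), and by -0.34 without Msi2 KO 3. The chemokine gene Ccl3 was likewise without overlap, at 4.02 to 4.63 in Msi2 KO and 4.88 to 5.48 in control. In the other direction, the pseudokinase gene Trib2 differed by 1.67 ± 0.59 (SE; limma, adjusted p 0.376). Gfi1b, the gene of a transcriptional repressor that acts in erythroid and megakaryocytic cells, differed by 0.95 ± 0.35 (SE; limma, adjusted p 0.388). Both were highest on Msi2 KO 3. Without that array Trib2 differed by 1.07 and Gfi1b by 0.65.

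**Figure D5:**
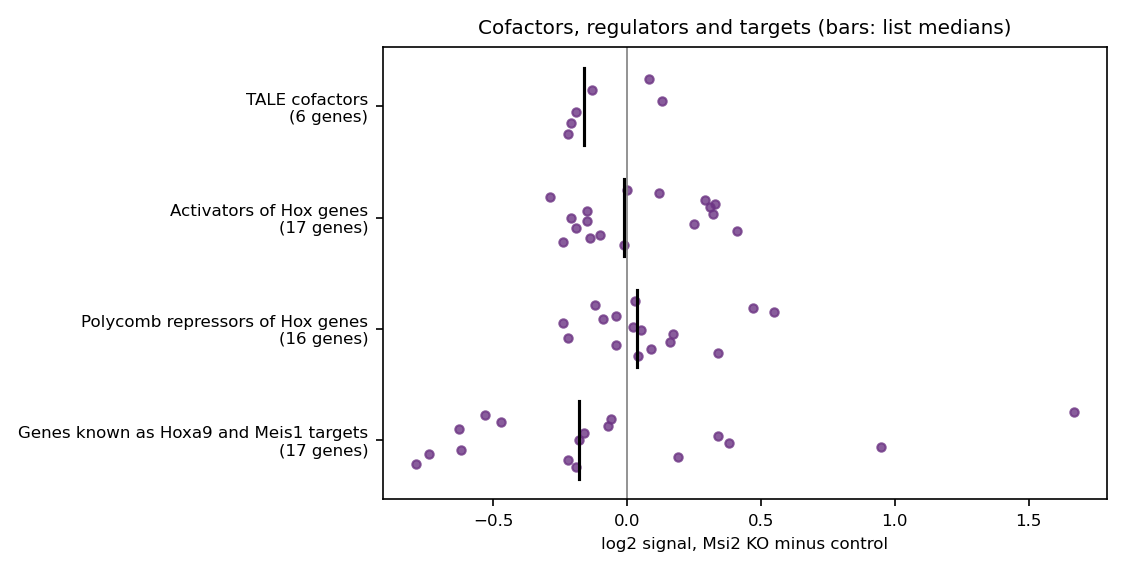
Difference of log2 signal, Msi2 KO minus control, of each measured gene of 4 lists, with black bars at the list medians (-0.16, -0.01, 0.03 and -0.18 from top to bottom). The points lie on both sides of 0 in every list, with Trib2 at 1.67 farthest to the right.

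By likeness of profile over the 8 arrays, the genes nearest to Hoxa9 (1455626_at) were Wfdc17, Slc26a11 and Pcgf5, with a Pearson r of 0.981, 0.978 and 0.977. Over the 7 arrays without Msi2 KO 3 the r was 0.954, 0.939 and 0.947. Nearest to Hoxb4 (1460379_at) were Rapgef5, Ercc4 and Fzd3, with r of 0.966, 0.965 and 0.943, and 0.948, 0.927 and 0.921 over the 7 arrays. These were picked as the highest of all genes, so they carry no test. Among the Hox genes the r was lower without Msi2 KO 3 for every pair with Hoxa9 or Hoxb4, to differing degrees. Leaving out Msi2 KO 3 takes away a lowest point that all these genes share, so the fall is no result of its own. Some pairs turned negative. The r of Hoxa9 with Hoxa5 and Hoxa7 went from 0.467 and 0.339 to -0.455 and -0.281. That of Hoxb4 with Hoxa5 and Hoxb5 went from 0.361 and 0.297 to -0.447 and -0.424. The r of Hoxa9 with Hoxa3, Hoxa10 and Hoxb4 was 0.709, 0.605 and 0.776 over 8 arrays, and 0.175, -0.054 and 0.475 over the 7 without it. The r of Hoxa9 with Hoxb3 was 0.577 and 0.409, and that of Hoxb4 with Hoxa10 was 0.718 and 0.377.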

How the data were processed

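Each of 8 Affymetrix mouse arrays has 1 deposited column of log2 signal per probe set, which the authors made with RMA per the submitters' processing notes. The RMA version was not stated there. Of 45101 probe sets, 20664 (45.8%) were 0 on all arrays, by an unstated step, and were left out. Gene names came from the array annotation, updated through gene IDs with a RefSeq table of GRCm38.p6, and 34958 probe sets had 1 name, 932 several and 9211 none. 64 control probe sets were left out.

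Two-sided tests, adjusted by Benjamini-Hochberg and called at 0.05, were run with limma (version 3.58.1, under R 4.3.3) over 24404 probe sets, and over 10720 genes with the brightest probe set of each. Hox values are from the first, list values from the second. Exact permutation used all assignments of 4 and 4 arrays. Intervals cover 95% and are limma's. The fit was tested on simulated data. The number of arrays limits precision.

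The members and lists were chosen with earlier results of these data known. All measured Hox probe sets were named. Of each other list, all genes were to be named where 5 or fewer were measured, otherwise the 2 with the smallest p in each direction, with Meis1, Pbx3, Kmt2a, Bmi1 and Ezh2 among those named in any case, and the 3 genes most like Hoxa9 and Hoxb4. Marker lists are given mainly by counts and summed linear signal. Alternatives were repeated normalization, centring, filters, priors, array weights, the replicate block, Xist level, other choices of probe set, and leaving out each array. Fits on only those arrays whose Xist level was high, or low, were added after seeing the data.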

Additional observations from a re-analysis of the deposited data

Results flagged for a closer look

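For 7 of 78 groups of 4 arrays examined, 1 array lay far from the other 3 by Dixon's criterion, where chance gives about 1 in 20. Msi2 KO 3 was that array for Hoxa9 1421579_at (7.01, the other Msi2 KO arrays 8.21 to 8.41), Hoxb3 1427605_at (4.72, others 5.25 to 5.31) and Sox4 (9.09, others 9.79 to 9.91). Msi2 KO 1 was high for Pbx2 (9.87, others 9.41 to 9.47). Among the controls, control 3 was high for Hoxa3 1427433_s_at (7.06, others 6.68 to 6.73) and control 1 was high for Hoxa5 1448926_at (6.35, others 5.62 to 5.72). Control 1 was low for Hoxb5os (6.02, others 6.83 to 6.97), still above all Msi2 KO arrays.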

How the results depend on the processing

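No Hox probe set or gene passed the threshold under any alternative run. Over all probe sets, limma passed 1 with repeated quantile normalization, 1 without those below the median level, 2 with an intensity trend and robust prior, 1 with array weights, and 0 to 1 when 1 array was left out. Over all genes it passed 5 with Xist level as a covariate and 0 to 1 when 1 array was left out. The replicate block left 0 Hox probe sets past the threshold (lowest adjusted p 0.524) and a Hoxa median of -0.21. It changed no other call. The deviations of control and knockout arrays of the same number correlated weakly (0.132, -0.121, 0.079 and -0.038, in order of number). For number 1 the array of the same number was the best match, and for the others it was not. With 1 pair a number, these correlations cannot tell whether such arrays share more than a name. When 1 array was left out, the medians ran from -0.40 to 0.09 for Hoxa, above 0 only without Msi2 KO 3, and from -0.32 to -0.03 for Hoxb. Those differences that turned sign ran from -0.41 to 0.09 (Hoxa3 1427433_s_at), -0.41 to 0.50 (Hoxa3 1452421_at), -0.22 to 0.36 (Hoxa5), -0.46 to 0.01 (Hoxa9 1421579_at), -0.05 to 0.33 (Hoxa10), -0.32 to 0.21 (Hoxb4 1451761_at), -0.38 to 0.08 (Meis1), -0.39 to 0.00 (Pbx3), -0.09 to 0.25 (Pknox1), -0.02 to 0.19 (Tgif2) and -0.01 to 0.09 (Ezh2). On the arrays with low Xist alone the sign turned for Hoxa3 (0.43 and 0.70), Hoxa5 (-0.04), Hoxa9 1455626_at (0.07), Hoxb3 1427605_at (0.39), Hoxb4 1460379_at (0.18), Meis1 (0.05), Pbx2 (0.19), Pbx3 (0.30), Pknox1 (-0.03), Tgif2 (-0.10), Ezh2 (-0.02), Tek (0.15) and Procr (0.11). On those with high Xist it turned for Hoxa5 (-0.27), Hoxa10 (-0.21) and Hoxb4 1451761_at (0.08). With Xist as a covariate it turned for Hoxa5 (-0.19), Hoxa10 (-0.01) and Tgif2 (0.00), and with array weights for Hoxa3 1452421_at (0.10) and Hoxb4 1451761_at (0.07). Without probe sets shared between transcripts Pbx2 differed by 0.19, and with the mean of all its probe sets Psip1 by 0.06. The cause of these turns was not tested. Signal over background was not analysed here, so low readings are of unknown precision.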
